A study of Mus musculus with 6 samples.

Results

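The cytosolic ribosome is the machine that reads messenger RNA and makes protein, and its small and large subunits are built from ribosomal RNA and a fixed set of ribosomal proteins, one copy of nearly each. The genes of these proteins are among the most heavily transcribed of growing fibroblasts, and their messages carry a run of pyrimidines at the very start (the 5′ terminal oligopyrimidine tract, or TOP), through which mTOR signalling controls their translation. Myc is a known activator of ribosome production, which is why these genes are of interest in a cell system where Myc can be switched.

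The members are 49 probe sets of 35 cytosolic ribosomal protein genes, out of 12488 probe sets on the array. They were chosen by symbol: every probe set that the platform annotation maps to exactly 1 gene with a symbol of the Rpl or Rps series, or Rpsa, Rplp0, Rplp1 or Rplp2, with S6 kinases and pseudogenes marked -ps left out. The rule itself uses no measured value. The large subunit was represented by 17 genes (22 probe sets) and the small subunit by 18 genes (27 probe sets). One of these, Rps4l, is listed as a transcribed pseudogene in RefSeq, although its symbol meets the rule. Ribosomal protein genes have many processed pseudogenes, and 39 further probe sets whose annotation joins a ribosomal protein gene to other genes were left out.

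The cells are NIH3T3 mouse fibroblasts of the line labelled 35/1-22. Every group carries c-myc and Ha-ras transgenes under a Tet-off promoter, which is silent in doxycycline, and constitutively makes an IRF-1hER fusion protein, the transcription factor IRF-1 joined to a hormone receptor part that estradiol activates. The doxycycline group received 2 µg/ml of the drug (oncogenes off), the withdrawal group received neither agent (oncogenes on), and the estradiol group, also without doxycycline, was given estradiol over 48 h (oncogenes on, fusion active). The dose is labelled as 1 mM. Each group has 2 arrays. Replicate 1 was extracted with an RNeasy kit and replicate 2 with TRIzol, and the title of doxycycline replicate 2 also names estradiol, which its treatment entry does not.

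The RNA had the signals of fibroblasts. The summed signal of 16 fibroblast marker genes was 39359 and 34214 on the doxycycline arrays, 25911 and 35821 on the withdrawal arrays and 25773 and 20241 on the estradiol arrays. Fibroblast markers were thus lower on 3 of the 4 arrays without doxycycline, and their part in the results below was not tested. The sums for epithelial, leukocyte, endothelial and muscle markers were between 96.1 and 657 on every array. Of these 4 lists, 7 genes passed the filter described below, Krt8, Cdh1, Cd68, Csf1r, Cd14, Myod1 and Myog, the highest of them Cd14 with signals of 257 to 379, while Ptprc and Epcam did not exceed 10.5. The fibroblast markers Vim and Lum did not pass the filter. Withdrawal replicate 1 and the first estradiol array were almost alike (0.215% of tested probe sets differed at least 2-fold), while withdrawal replicates 1 and 2 differed at least 2-fold in 12.3%.

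The sequence around the transcript start is shown for 6 members, because the TOP tract is the element that this family is known for. Promoter windows from RefSeq (build GRCm38.p6, 250 bases before to 50 bases after each annotated start) matched 28 of the 35 genes, with 37 windows, some of which overlap because a gene has several starts. Each line below gives 15 bases before the annotated start and 15 bases of the first exon. Capitals mark the longest run of C followed by at least 4 bases that are each C or T.
Rpl7a: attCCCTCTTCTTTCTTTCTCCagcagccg
Rps10: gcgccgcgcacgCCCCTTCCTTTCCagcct
Rps18: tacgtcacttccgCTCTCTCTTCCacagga
Rpl13a: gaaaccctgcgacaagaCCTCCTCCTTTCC
Rps28: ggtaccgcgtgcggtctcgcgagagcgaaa
Rpl41: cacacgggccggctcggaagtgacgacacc
These windows lie at chr2:26910792-26910821 (plus strand) for Rpl7a, at chr17:27635230-27635259 (minus) for Rps10, at chr17:33955651-33955680 (minus) for Rps18, at chr7:45128731-45128760 (minus) for Rpl13a, at chr17:33824548-33824577 (minus) for Rps28 and at chr10:128549154-128549183 (minus) for Rpl41.

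The first 4 windows hold a tract of 11 to 19 bases, of which the last base of the Rpl13a tract falls outside the window. The windows of Rps28 and Rpl41 hold none at the annotated start, which says only that these letters are not there. Within 20 bases of the start, a tract of at least 5 bases was found in 23 of 37 member windows (62.2%), against 45.9% of all 32851 windows of the table. A tract of at least 8 bases was found in 11 member windows (29.7%), against 12.6% of all. In 5 member windows (13.5%, against 2.505% of all) the first exon opened with C and then 4 bases that are each C or T. Such a run can reach back before the annotated start, as in Rps10 and Rps18. Motifs were searched on both strands of the 300 bases. CCGGAAG, the core bound by ETS factors, was in 12 member windows (32.4%, against 8.86% of all). AAGATGGC, a YY1 core, was in 7 (18.9%, against 2.75%). These 7 windows belong to 5 genes and include overlapping windows of Rpl35a, in which 1 site can count more than once. CACGTG, the E-box that Myc and Max can bind, was in 4 (10.8%, against 7.15%), in windows of Rpl13a, Rpl19 and Rps19. The GAAA repeat that IRF factors can bind (GAAA, any 2 bases, GAAA) was in 3 (8.11%, against 3.44%), those of Rpl38, Rps7 and 1 of the Rps19 windows. The ETS core ends in the letters with which the YY1 core begins, so these can share bases.

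The signals of the members fell into a bright and a dim class. MAS5 is the method that turned the scanned brightness of a probe set, a group of short probes against 1 transcript, into a single signal, and signals of different probe sets are no measure of relative mRNA amounts. Of the 49 probe sets, 23 (21 genes) had a mean signal above 1000 over the 6 arrays, a limit set after the values were seen. Another 4 lay between 100 and 1000, and 22 did not exceed 100. After removal of the dimmest 40% of all probe sets, which lay below a signal of about 29, 31 members of 28 genes remained for testing. The 18 members left out had mean signals from 4.45 to 29.7. They include all probe sets of Rpl32, Rpl35a, Rpl39, Rps14, Rps15, Rps20 and Rps4l, so these 7 genes were not tested. At the edge of the filter, the dimmer probe set of Rpl22 had a mean signal of 29.7 and was left out, and the tested probe set of Rpl38 had 31.8 and was kept.

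Rpl41, which encodes the smallest ribosomal protein, had the highest signal of any probe set on all 6 arrays. Its signals were 15343 and 13748 on the doxycycline arrays, 15048 and 9724 on the withdrawal arrays, and 15042 and 10377 on the estradiol arrays. Rplp0 is the base of the stalk that recruits elongation factors to the large subunit, and is widely used as a reference gene. It held rank 4 by mean signal, with 10349 and 9487, 11437 and 8069, and 11860.2 and 8600.4 in the same order. Rplp1 and Rplp2 had no probe set of their own. In both genes the 3 arrays of replicate 1 were all above the 3 of replicate 2, whatever the group.

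**Figure D1:**
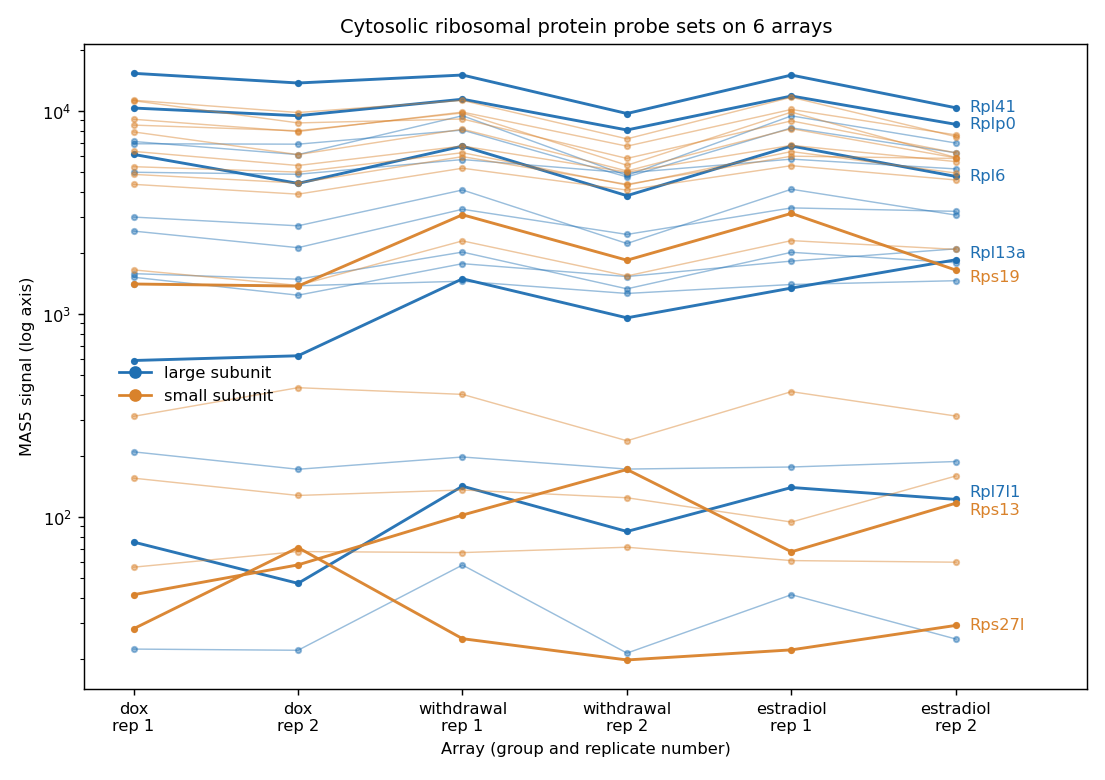
MAS5 signal (log axis) of the 31 tested ribosomal protein probe sets on each of the 6 arrays, with large subunit genes in blue and small subunit genes in orange. Each line joins 1 probe set's values and stands for no time course. Most bright lines dip together at withdrawal replicate 2, Rpl13a among them (959, after 1492 on withdrawal replicate 1). Rpl13a lies at 591 and 623 with doxycycline and between 959 and 1852 on the other arrays.

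Probe sets of 1 gene could differ greatly in signal. Of 10 genes with several probe sets, 5 had mean signals more than 10-fold apart. Rps4x, the X-linked small subunit gene, was read by 5 probe sets. The brightest had signals between 4318 and 6317, and the other 4 never exceeded 41.4. Rpl19 was read at a mean of 6845 and 13.3, and Rpl7 at 5266 and 5.92. In each of these genes the dim probe set was left out by the filter, so the values below come from the bright one. The bright probe set of Rps24 carries the same source accession as the bright one of Rpl7, so its assignment to Rps24 is uncertain. Of the tested members, 9 have a suffix by which the manufacturer marks probes that may be shared between transcripts or that break design rules, Rpl41 among them.

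The first comparison, withdrawal against doxycycline, asks what switching on Myc and Ras does. Averaged over both replicates, the ribosomal protein genes as a group showed no common direction. Of 31 tested members 16 were higher (51.8% of all 7453 tested probe sets were) and 15 lower. The median difference was 0.01 on the log2(signal + 32) scale, and 0.01 over all tested probe sets. Limma called 0 of 31 members at an adjusted p under 0.05 (0% of all tested probe sets), and 2 at an unadjusted p under 0.05 (4.37% of all, 2.07% higher and 2.31% lower), both of them higher, Rps13 and Rpl13a. Both groups of arrays were fully separated upwards in 5 members (16.8% of all tested probe sets) and downwards in 1 (15.0% of all). Upwards, the members' count is near that background.

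This median hides opposite values in the replicates. In replicate 1 withdrawal was above doxycycline in 25 of 31 members, by a median of 0.22. In replicate 2 it was above in 11 of 31, and the median was -0.12. All tested probe sets had medians of 0.02 and 0.03. Without withdrawal replicate 1 the member median was -0.21, and without withdrawal replicate 2 it was 0.24. Without doxycycline replicate 2 it was -0.03.

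Rpl13a, Rps19, Rps13 and Rpl7l1 had the highest differences among members above 0 in both replicates, and none passed the test. Rpl13a, a large subunit protein that is also reported to silence inflammatory mRNAs after interferon gamma, read 1492 and 959 on the withdrawal arrays, and 591 and 623 on the doxycycline arrays. Both withdrawal arrays were above both doxycycline arrays, by 0.94 (SE 0.32, adjusted p = 0.925 with limma). Rps19, a small subunit gene mutated in Diamond-Blackfan anaemia, had 3085 and 1843 against 1407 and 1374. The groups did not overlap here either, and the difference was 0.77 (SE 0.39), or 0.40 without withdrawal replicate 1. The dim probe set of Rps13, another small subunit gene, had 102 and 172 against 41.5 and 58.2, a difference of 1.02 (SE 0.32). It was 1 of 4 tested members with a mean signal up to 100 and carries a suffix of the kind described above.

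Rpl7l1 encodes a relative of the large subunit protein uL30 and acts in ribosome assembly in the nucleolus. It read 142 and 85.0 on the withdrawal arrays, and 75.4 and 47.2 on the doxycycline arrays, so the groups did not overlap (0.63, SE 0.30). Without withdrawal replicate 1 this was 0.34. The remaining member with separated groups upwards was Rpl39l, a close copy of Rpl39 best known from testis, at 1772 and 1532 against 1519 and 1239 (0.26, SE 0.28). The probe set of Rpl39 itself had a mean signal of 15.6 and did not pass the filter. Whether the Rpl39l probe set also reads Rpl39 was not tested, so its assignment is uncertain.

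Among lower members, Rps27l, a p53-inducible copy of Rps27, had signals of 25.2 and 19.8 against 28.2 and 70.8, with both withdrawal arrays below both doxycycline arrays. Its difference of -0.53 (SE 0.30) came from signals close to the filter. Without doxycycline replicate 2, its highest array, it did not pass the filter. Its place among the tested members thus rests on the array that makes it look lower, and the difference lends no support. Rps28, a small subunit gene, was read by 2 bright probe sets. The dimmer of these had 9140 and 5845 against 11246 and 8743, which overlap, with a difference of -0.44 (SE 0.33), or -0.76 and -0.12 when withdrawal replicate 1 or 2 was left out. The brightest differed by -0.22 (SE 0.33), and by 0.10 without withdrawal replicate 2. The remaining dim probe set of Rps28 stood at -0.09. Rpl41 differed by -0.26 (SE 0.32), which was 0 under quantile normalization, where the highest probe set of each array is set to 1 value, and 0.051 without withdrawal replicate 2. The adjusted p of each member named for this comparison was 0.925 or above with limma.

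The second comparison, estradiol against withdrawal, asks what activating IRF-1 does while the oncogenes are on. The members stood slightly higher with estradiol, and nearly all of that came from replicate 2. Of 31 members 25 were higher, with a median of 0.10, against 51.0% higher and a median of 0.01 for all tested probe sets. Limma called 0 members (0% of all) and had 0 at an unadjusted p under 0.05 (0.698% of all). The groups were fully separated upwards in 1 member (11.5% of all), Rpl39l, and downwards in 1 (10.2% of all), Rps29.

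In replicate 1 the member median was 0.01, and the 23 bright members moved by a median of 0.02 without regard to sign, less than between any other pair of arrays. The replicate 2 arrays gave 0.20, with 28 of 31 higher. Without withdrawal replicate 2 the member median was -0.14, and without withdrawal replicate 1 it was 0.36, so the direction rests on which withdrawal array is used.

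Rpl39l read 1825 and 2096 on the estradiol arrays, and 1772 and 1532 on the withdrawal arrays (0.24, SE 0.28). The brighter probe set of Rpl10a had 4120.4 and 3074 against 4086 and 2227, which overlap (0.24, SE 0.35). Its dimmer probe set also overlapped and stood at 0.08. Rpsa, the small subunit protein also known as a laminin receptor precursor, had 2301 and 2084 against 2294 and 1541 (0.22, SE 0.30). In Rpl10a and Rpsa the replicate 1 arrays hardly differed and the replicate 2 arrays did. Rpl19 likewise had 8265 and 6232 against 8062 and 4737 (0.21, SE 0.33). Without withdrawal replicate 2, the brighter probe set of Rpl10a stood at -0.20, Rpsa at -0.066 and Rpl19 at -0.17. Lower values in both replicates were seen for Rps13, with 67.5 and 117 against 102 and 172 (-0.44, SE 0.32), and Rps29, with 61.1 and 60 against 66.9 and 71.1 (-0.13, SE 0.24). Limma's adjusted p was 1.00 for each of these 6 genes.

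The third comparison, estradiol against doxycycline, combines active oncogenes with active IRF-1 and cannot tell one from the other. It shares its arrays with the first 2. Here the member median was above 0 in both replicates. Of 31 members 21 were higher and the median was 0.12, from 0.25 for replicate 1 and 0.09 for replicate 2, against 50.4% higher and a median of 0.00 for all tested probe sets. Both estradiol arrays were above both doxycycline arrays in 13 members (27.0% of all tested probe sets), and in 0 members were both below (24.7% of all). Without estradiol replicate 1 the median was -0.01.

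Large subunit members stood at a median of 0.26, with 13 of 15 higher, and small subunit members at 0.03, with 8 of 16 higher. Within replicate 1 these medians were 0.26 and 0.19. Within replicate 2 they were 0.11 (12 of 15 higher) and -0.03 (7 of 16 higher). The difference between the subunits was not tested. Limma called 0 members (0% of all tested probe sets), with 2 at an unadjusted p under 0.05 (14.0% of all, 8.31% higher and 5.66% lower), both of them higher, Rpl13a and Rpl7l1.

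Rpl13a had the largest difference of all members. It read 1343 and 1852 on the estradiol arrays, and 591 and 623 on the doxycycline arrays, more than 2-fold higher on each estradiol array. The log2 difference was 1.33 (SE 0.32, adjusted p = 0.255 with limma), with 1.14 in replicate 1 and 1.52 in replicate 2. Limma's adjusted p became 0.0485 when withdrawal replicate 1 was left out and 0.0459 when withdrawal replicate 2 was, and over all alternatives it ranged up to 0.912. In those fits 1.76% and 1.82% of all tested probe sets were called, against 0% with all arrays. Rpl7l1 had 140.0 and 122 against 75.4 and 47.2, again without overlap (0.82, SE 0.30, adjusted p = 0.301 with limma). The signals of Rps19 were 3134 and 1647 against 1407 and 1374, with a difference of 0.70 (SE 0.39) that was 0.24 without estradiol replicate 1. Rps13 stood at 0.58 (SE 0.32).

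Rpsa had 2301 and 2084 against 1651 and 1385, above in both replicates (0.52, SE 0.30). Rps3, a small subunit protein with reported roles in DNA repair and NF-kappaB signalling, had 5995 and 5841 against 4878 and 4423 (0.35, SE 0.28). Rpl39l had 1825 and 2096 against 1519 and 1239 (0.50, SE 0.28). In all 3 genes the estradiol arrays lay above the doxycycline arrays, without passing the test. At the lower end stood Rps27l at -0.45 (SE 0.30), the dimmer bright probe set of Rps28 at -0.41 (SE 0.33) and Rpl41 at -0.22 (SE 0.32). Rps27l passed the filter only through doxycycline replicate 2, as said above. Rpl41 was 0 under quantile normalization and 0.050 without estradiol replicate 2. Rplp0 stood at 0.03 (SE 0.30) and the bright probe set of Rps4x at 0.12 (SE 0.30), and without estradiol replicate 1 at -0.20 and -0.059.

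Of the genes whose start sequences are shown, Rpl7a, with the 19-base tract, read 3335 and 3207.5 on the estradiol arrays, and 2564 and 2124 on the doxycycline arrays, without overlap (0.48, SE 0.28). Rps10 read 5384 and 4578 against 4356 and 3897.5, also without overlap (0.27, SE 0.28). Rps18 had 10184 and 7630.5 against 9112 and 7928, and these overlap (0.05, SE 0.30, or -0.15 without estradiol replicate 1). Any relation between the tract and the difference was not tested. The remaining members with separated groups were the brighter probe set of Rpl10a, Rpl37a, Rpl38 and Rpl7, at 0.31, 0.30, 0.26 and 0.15. The dimmer probe set of Rpl10a, with a mean signal of 1394, overlapped and stood at 0.04. Rpl38 had 41.5 and 25.1 against 22.4 and 22.1, signals close to the filter. It did not pass the filter without withdrawal replicate 1 or without estradiol replicate 1, its highest arrays. Its place in the count of separated members thus rests on arrays where it was high, and it lends that count no support.

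**Figure D2:**
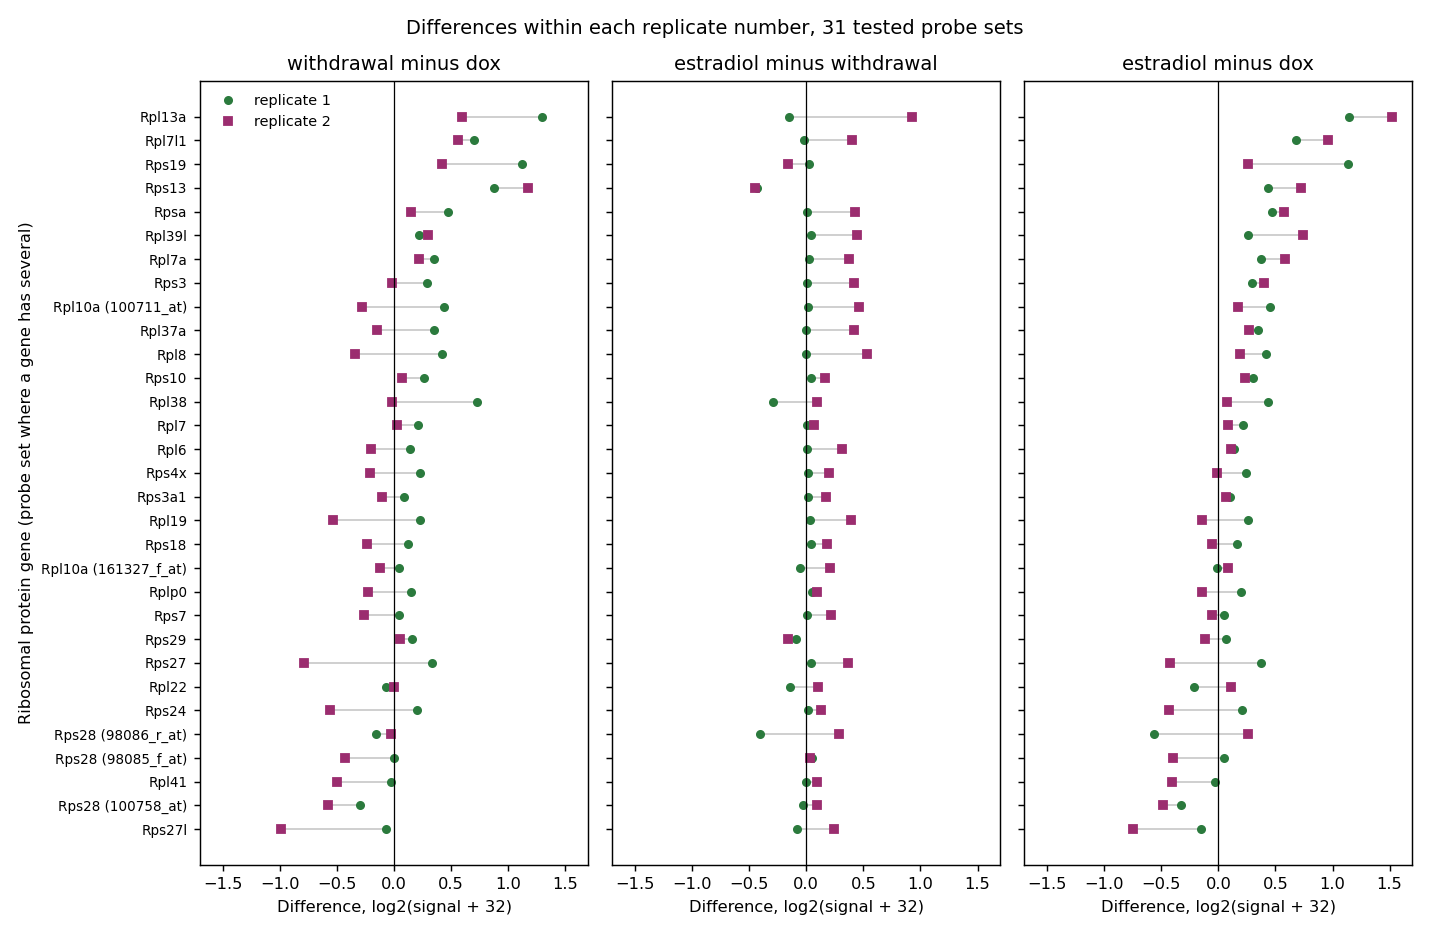
Differences on the log2(signal + 32) scale for the 31 tested probe sets in each comparison, within replicate 1 (circles) and within replicate 2 (squares), ordered by the difference between estradiol and doxycycline. In the middle panel most circles sit close to 0 and most squares to the right. In the outer panels Rpl13a, at the top, has both replicates above 0.

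Bright ribosomal protein genes were lower in replicate 2 whatever the treatment. With the groups held in the model, replicate 2 was below replicate 1 in 27 of 31 members and in all 23 bright ones, with a median of -0.32 over the members and -0.36 over the bright ones. Over all tested probe sets the median was 0.01, with 51.3% higher. In 22 of 31 members (71.0%) replicate 2 was lower in each of the 3 groups, against 15.4% of all tested probe sets. The 3 arrays of replicate 2 lay wholly below the 3 of replicate 1 in 12 members (6.75% of all tested probe sets), and wholly above in 0 (7.69% of all). The 12 read Rpl6, Rpl8, Rpl19, Rpl41, Rplp0, Rps3a1, Rps4x, Rps7, Rps18, Rps24 and Rps28, the last by both bright probe sets. Limma called 0 members in this contrast (0% of all), with 10 at an unadjusted p under 0.05 (8.76% of all). Of these, 9 were lower (4.62% of all) and 1 was higher (4.15% of all). The count of 10 rose without either doxycycline array and fell without any of the other arrays. The share of all tested probe sets moved the same way each time. With each array left out in turn, the member median lay between -0.41 and -0.20.

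Rpl6, a large subunit gene, had signals of 6117, 6718 and 6729 in replicate 1 against 4403, 3830.2 and 4764 in replicate 2, in the order doxycycline, withdrawal and estradiol. All 3 replicate 1 arrays were higher (-0.59, SE 0.18, adjusted p = 0.560 with limma). Rpl8, another large subunit gene, had 7082, 9486 and 9468 against 6102, 4816 and 6960.1 (-0.54, SE 0.20). The probe set assigned to Rps24 stood at -0.56 (SE 0.20) and Rps19 at -0.56 (SE 0.24). In contrast, Rps13 was higher in replicate 2 in every group, with 58.2, 172 and 117 against 41.5, 102 and 67.5 (0.49, SE 0.20).

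Brightness moved with this difference. The 474 other probe sets with a mean signal above 1000 had a median of -0.17, with 326 lower, and the 8 tested members up to 1000 had a median of -0.02. Under quantile normalization, which gives every array the same distribution of signals, the member median was -0.088 and 1 member had an unadjusted p under 0.05 (7.85% of all). The part of signal range, extraction method and cell state in this difference was not tested.

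**Figure D3:**
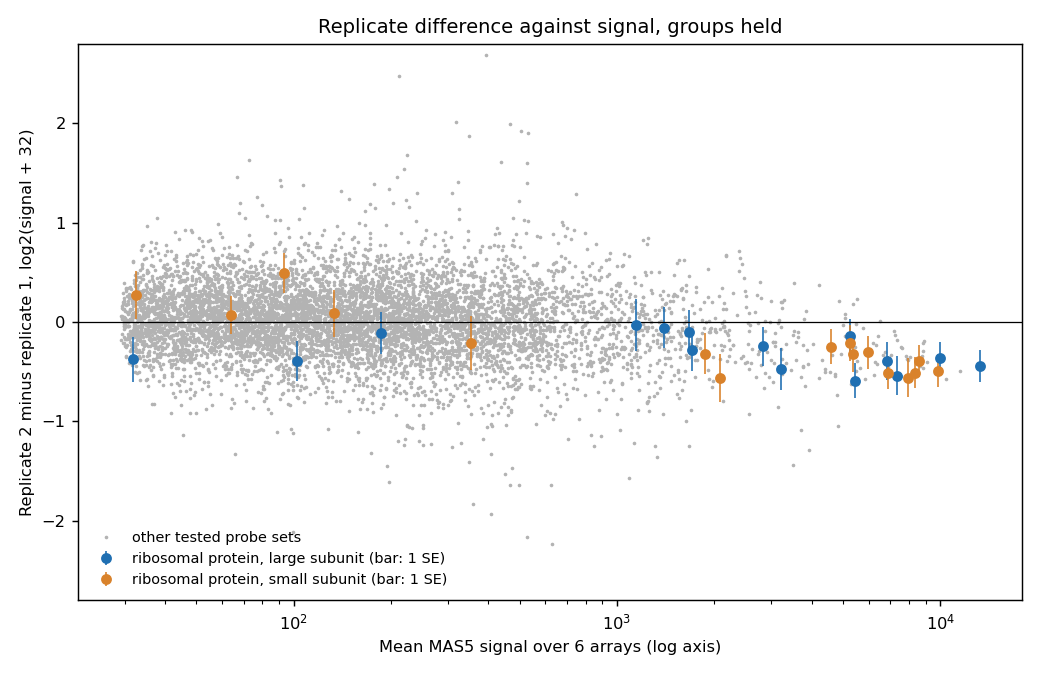
Difference between replicate 2 and replicate 1 on the log2(signal + 32) scale, with groups held, against the mean signal over 6 arrays (log axis), for all tested probe sets (grey) and ribosomal protein probe sets (blue and orange, bars 1 SE). The 23 members above a signal of 1000 all lie below 0, in a region where most grey points also lie below 0.

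Array by array, the bright members were lowest on withdrawal replicate 2. Relative to each probe set's mean over the 6 arrays, their median log2 level was 0.00 and -0.15 on the doxycycline arrays, 0.23 and -0.30 on the withdrawal arrays, and 0.26 and -0.07 on the estradiol arrays. Withdrawal replicate 2 gave the lowest signal for 16 of these 23 probe sets and doxycycline replicate 2 for 6. Estradiol replicate 1 gave the highest for 16. The 49 members together held 4.88% and 4.38% of the summed signal of all probe sets on the doxycycline arrays, 5.31% and 3.77% on the withdrawal arrays, and 5.34% and 4.32% on the estradiol arrays. By both measures the withdrawal replicates lay furthest apart.

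Other genes of protein synthesis are set beside the members, from lists chosen by function. Messages known to carry a TOP tract but encoding no ribosomal protein, such as those of elongation and initiation factors, were higher with estradiol than with doxycycline in 12 of 16 probe sets, with a median of 0.29. Among them, Eef1a1, which brings aminoacyl-tRNA to the ribosome, read 13591 and 9225 on the estradiol arrays, and 13779 and 10644 on the doxycycline arrays (-0.11). Their median between replicates was -0.35, with 1 of 16 higher in replicate 2. All tested ribosomal protein members stood at -0.32 and the bright ones alone at -0.36.

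Ribosome biogenesis genes, which build rather than form the ribosome, were higher with estradiol than with doxycycline in 45 of 47 probe sets, with a median of 0.84. Npm1, a nucleolar chaperone that is in the TOP list as well, had 3989 and 2955 against 2547 and 2077, without overlap (0.57). Ncl, the nucleolar protein nucleolin, had 4203 and 2746 against 1655 and 1628, again without overlap (1.04). Withdrawal against doxycycline gave these genes a median of 0.29, with 41 of 47 higher. The withdrawal arrays differed in this: relative to each probe set's mean over the 6 arrays, the list stood at 0.36 on withdrawal replicate 1 and at -0.48 on withdrawal replicate 2, which is below the -0.35 and -0.44 of the doxycycline arrays. Ncl had a signal of 912 on withdrawal replicate 2, also below both doxycycline arrays. Mitochondrial ribosomal proteins, which serve the separate ribosome of mitochondria, were higher with estradiol than with doxycycline in 58 of 66 probe sets, with a median of 0.48. Their brightest member, Mrpl18, had 1704 and 1269.9 against 1130 and 912, without overlap (0.52). Between replicates this list had a median of -0.03. Limma called 0 probe sets of these 3 lists in any of these contrasts. For estradiol against doxycycline, 4 of 16, 20 of 47 and 12 of 66 had an unadjusted p under 0.05 (14.0% of all tested probe sets), in the order given. The differences between lists were not tested.

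**Figure D4:**
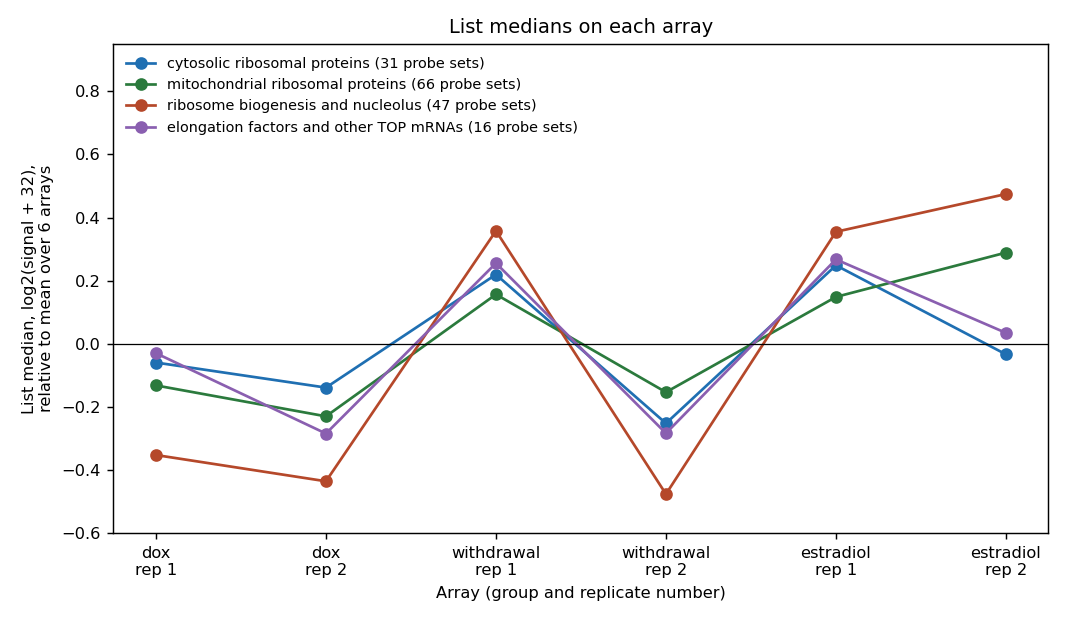
Median log2(signal + 32) of 4 gene lists on each array, relative to each probe set's mean over the 6 arrays. All 4 lists are above 0 on withdrawal replicate 1 and estradiol replicate 1 and below 0 on withdrawal replicate 2. On estradiol replicate 2 the biogenesis (0.47) and mitochondrial (0.29) lists are high, and the cytosolic ribosomal proteins are at -0.03.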

How the data were processed

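RNA of 6 samples, 3 groups of 2, was measured on 1-colour Affymetrix arrays, 1 array per sample. The authors deposited MAS5 signals, intensities on a linear scale, per the submitters' processing notes. Its version and settings are not stated there. Trimmed means lay between 150.09 and 150.1, so the arrays had been scaled alike. Genes came from the platform annotation, with 0 symbols changed through Entrez identifiers in RefSeq. Signals were scaled to 1 trimmed mean (2% at each end) and taken as log2(signal + 32), which understates differences of dim probe sets. The 66 control probe sets and the lowest 40% by mean were left out, and 7453 probe sets were tested with limma 3.58.1 (R 4.3.3), with 1 mean per group, an intensity trend and Benjamini-Hochberg adjustment over all of them. The replicate contrast held the groups in the model.

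By the labels, the replicate number marks the extraction method and so pairs the arrays. Deviations of same-numbered arrays correlated at -0.00727 (doxycycline and withdrawal), -0.0284 (doxycycline and estradiol) and 0.449 (withdrawal and estradiol). The labels name no separate cultures, so p-values measure only how these arrays vary, possibly for technical reasons, and 2 arrays per group limit the precision. Members and lists were chosen with earlier results of these data known. Named were, per comparison, the 4 highest and 4 lowest members with 1 sign in every replicate number or group, the stalk genes, paralogs, genes with roles outside the ribosome, and the brightest and dimmest. The limma procedure was tested on simulated data with independent noise for each probe set. Shifts that many probe sets of an array share were not simulated. Figures were drawn with matplotlib 3.10.9.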

Additional observations from a re-analysis of the deposited data

How the results depend on the processing

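Alternatives were another pseudocount (16 or 64), no filter or a 60% filter, quantile normalization or scaling to a common median, no intensity trend, the brightest probe set per gene, the replicate block, and leaving out each array in turn. With the replicate block limma called 0 members in each comparison, as without it, with 4, 0 and 4 members at an unadjusted p under 0.05 in place of 2, 0 and 2 (5.84%, 0.859% and 16.4% of all tested probe sets). The member medians did not move (0.01 for withdrawal against doxycycline, 0.10 for estradiol against withdrawal and 0.12 for estradiol against doxycycline). Leaving out arrays moved the medians from -0.21 to 0.24 for withdrawal against doxycycline and from -0.14 to 0.36 for estradiol against withdrawal. It moved the count of called members from 0 to 1 for estradiol against doxycycline, the 1 being Rpl13a, in fits that called 1.76% and 1.82% of all tested probe sets. Quantile normalization moved the median between replicates from -0.32 to -0.088. Rpl41 was 0 under quantile normalization in withdrawal and in estradiol against doxycycline. Rps27l and Rpl38 did not pass the filter in some of these fits, and such fits do not enter the next counts. With some array left out, the sign turned in 19 of 31 tested members for withdrawal against doxycycline, 27 for estradiol against withdrawal, 14 for estradiol against doxycycline and 4 for the replicates. Among those chosen by size, Rpl41 ranged from -0.58 to 0.051 for withdrawal and from -0.48 to 0.050 for estradiol against doxycycline, the brightest probe set of Rps28 from -0.53 to 0.10 for withdrawal against doxycycline, and Rpl10a from -0.20 to 0.67, Rpsa from -0.066 to 0.50 and Rpl19 from -0.17 to 0.60 for estradiol against withdrawal. The cause of these shifts was not tested. With 1 array left out of a group, the remaining one is assumed to vary like the other groups. Dim probe sets limit what can be said of the 7 genes without a tested probe set.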

Other observations

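The 39 probe sets whose annotation joins a ribosomal protein gene to a pseudogene or another gene read 31 ribosomal protein genes, 30 of which have no probe set among the members. Of these, 35 passed the filter and 23 had a mean signal above 1000. They were higher with estradiol than with doxycycline in 26 of 35 (50.4% of all tested probe sets were), with a median of 0.14. Limma called 0 of them (0% of all), with 1 at an unadjusted p under 0.05 (14.0% of all). For withdrawal against doxycycline the median was 0.04, with 21 of 35 higher. Between replicates all 23 bright ones were lower in replicate 2, with a median of -0.30. Relative to their means over the arrays, the bright ones stood at 0.05 and -0.17 on the doxycycline arrays, 0.21 and -0.20 on the withdrawal arrays, and 0.24 and -0.08 on the estradiol arrays. These probe sets can read pseudogene transcripts as well, and none is named for that reason.

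RNA polymerase I and its factors, which make ribosomal RNA, were higher with estradiol than with doxycycline in 11 of 15 probe sets, with a median of 0.57, and in 9 of 15 for withdrawal against doxycycline, with a median of 0.16. Relative to their means over the arrays they stood at -0.22 and -0.09 on the doxycycline arrays and at 0.24 and -0.41 on the withdrawal arrays, so withdrawal replicate 2 lay below both doxycycline arrays. The regulators of TOP message translation, among them mTOR and proteins downstream of it, were higher with estradiol than with doxycycline in 12 of 15, with a median of 0.22, and in 7 of 15 for withdrawal against doxycycline, with a median of -0.03. Limma called 0 probe sets of both lists (0% of all tested probe sets). For estradiol against doxycycline, 3 and 0 had an unadjusted p under 0.05 (14.0% of all). For withdrawal against doxycycline, 0 and 0 did (4.37% of all). Fau, whose product is a fusion of a ubiquitin-like protein and a small subunit protein, had signals from 8.90 to 30.9 and was not tested.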
